A study of Mus musculus with 20 samples.

Results

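The superoxide dismutase genes Sod1, Sod2 and Sod3, the catalase gene Cat, the glutathione peroxidase genes Gpx1, Gpx3 and Gpx4, the peroxiredoxin genes Prdx1 and Prdx3, and Txnip were followed in mouse kidney after ischemia and reperfusion injury (IRI). These 10 genes, of 27827 gene names on the array, were taken by gene name, and 13 of the 41174 probes carried their names. Of the 10, 9 encode antioxidant enzymes, and Txnip encodes the thioredoxin interacting protein, which is no enzyme but binds thioredoxin and blocks it.

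Superoxide dismutases turn superoxide into hydrogen peroxide, Sod1 mainly in the cytosol, Sod2 in the mitochondrial matrix and Sod3 outside the cell. Catalase in peroxisomes, glutathione peroxidases (which spend glutathione and, in these members, carry selenocysteine) and peroxiredoxins (which are recharged by thioredoxin) then remove the peroxide. The kidney is rich in catalase, and its proximal tubule is the main source of the secreted plasma enzyme Gpx3. A kidney that is reperfused after a period without blood is exposed to a burst of such oxidants.

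Total kidney RNA of C57BL/6 mice, males of 8 to 12 weeks per the study's methods, was labelled with 1 dye and hybridised to 20 arrays, 4 in each of 5 groups. Control mice had neither surgery nor treatment, so a comparison with them also holds the anesthesia and the opened abdomen. In IRI, both renal pedicles were clamped for 45 min and the kidney was taken after 6 h of reperfusion. IRI+Hemin mice had in addition received 25 mg/kg of hemin, an inducer of heme oxygenase 1 (Hmox1), 24 h before surgery. IPC+IRI mice had undergone ischemic preconditioning (IPC), 15 min of ischemia 7 days before the 45 min of IRI. The Hemin group received hemin and no surgery. The labels number the samples of a group as replicates but do not tie them to single animals, so the p-values measure the spread between these arrays.

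Values are given as log2 expression, the log2 of a gene's background-subtracted signal over the 75th percentile of its array, so that 0 is the 75th percentile and 1 unit is a factor of 2. A gene was called in a comparison at an adjusted p below 0.05 in a limma fit over all genes. All 10 genes were well above background on every array, except for 1 Gpx3 value in the Hemin group, which was removed with its flagged spot. No slide held more than 1 group. The scans fell on 3 days, the first for the arrays of Control and IRI, the next for those of IRI+Hemin, and the last for those of IPC+IRI and Hemin. Of the 10 pairs of groups, IRI vs Control and IPC+IRI vs Hemin are thus the only ones within a scan day. In all others the scan day and the treatment cannot be told apart. The slide and the treatment cannot be told apart in any of the 10 pairs, these 2 included. In the whole kidney, fewer cells of a type and less RNA per cell cannot be told apart either. The inducer was checked through Hmox1, which stood at 1.93 ± 0.21 in Hemin and 1.37 ± 0.52 in Control (SD, n = 4), a difference of 0.56 that was not called (adjusted p = 0.362), while it was at 6.03 ± 0.48 in IRI.

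Within a scan day 1 of the 10 genes was called, against 50.7% of all genes in IRI vs Control and 35.8% in IPC+IRI vs Hemin. This gene was Txnip in both comparisons. It was higher in IRI than in Control by 1.24 on the log2 scale, a 2.36-fold rise, and higher in IPC+IRI than in Hemin by 1.31, a 2.48-fold difference. The second pair differs by ischemia, preconditioning and hemin together and so does not measure ischemia on its own, Txnip being 0.83 higher in Control than in Hemin and 0.48 higher in IPC+IRI than in Control. None of the 9 enzyme genes was called in either comparison, though some alternatives called Sod3 or Prdx3 in the first, and Sod3, Prdx1 or Prdx3 in the second. The alternatives gave Prdx3 at -0.26 in IRI vs Control with the deposited matrix at the 75th percentile (adjusted p = 0.0308), and Sod3 at 0.68 without Control 3 (adjusted p = 0.0447). In IPC+IRI vs Hemin that matrix gave Sod3 at -0.82, Prdx1 at -0.36 and Prdx3 at -0.32, all called, and Prdx1 was called without IPC+IRI 1 (-0.32) or without Hemin 4 (-0.29). By contrast, Sod3 and Cat separated Control and IRI from the other 3 groups: both were at least 2-fold lower in Hemin and in the pretreated groups IRI+Hemin and IPC+IRI than in either Control or IRI. The other 7 genes moved by less than a factor of 2 in every comparison at this scaling, with group means that spanned 0.35 to 0.60 on the log2 scale, against 3.47 for Sod3, 2.07 for Txnip and 1.45 for Cat.

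**Figure D1:**
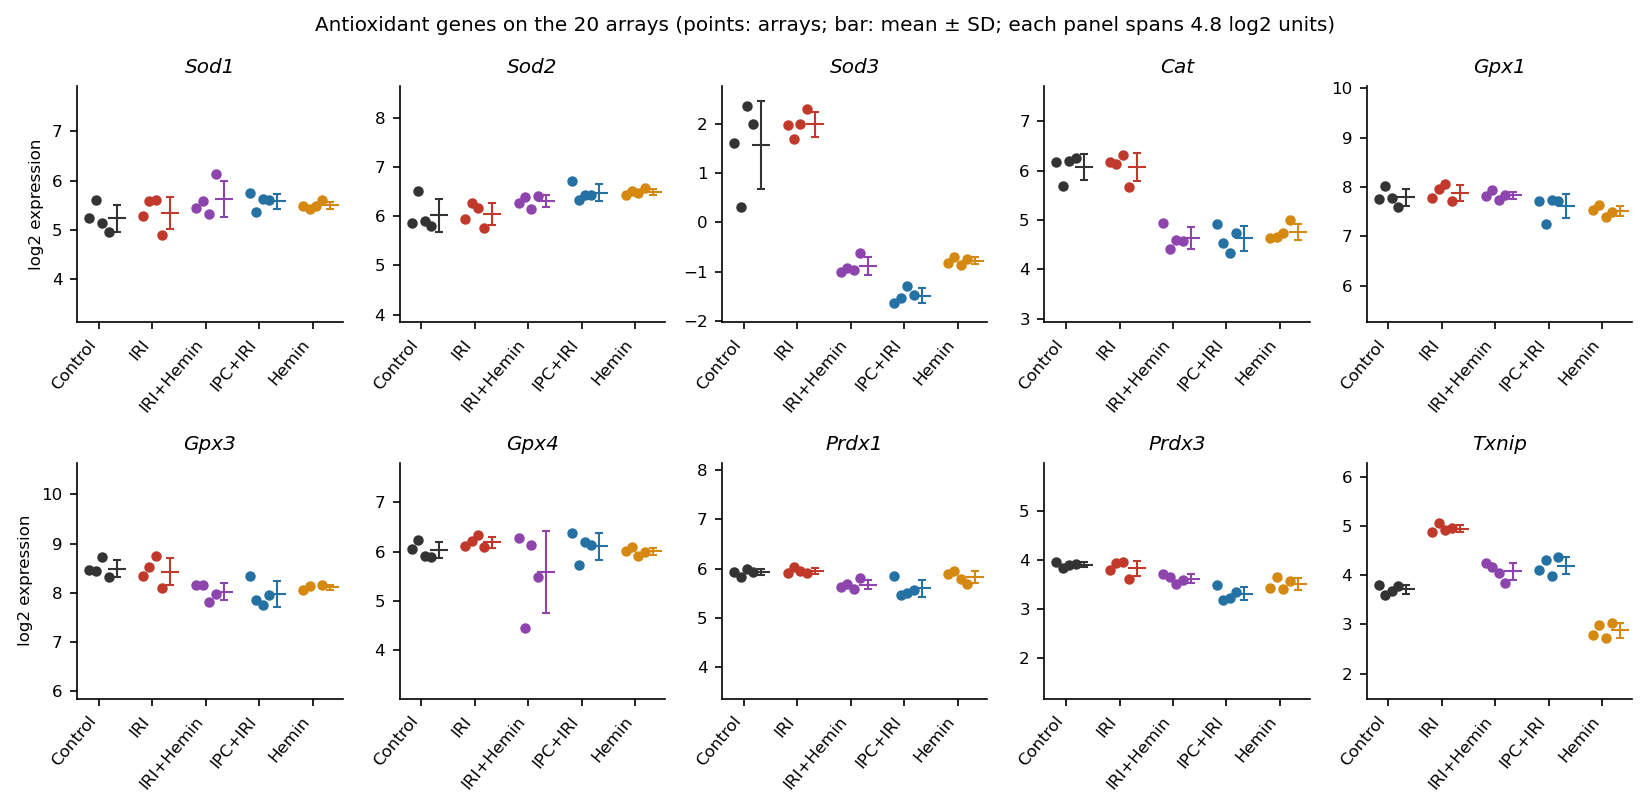
Log2 expression (vertical axis, in log2 units above the 75th percentile of the array) of the 10 genes on the 20 arrays, by group, with points for arrays and a bar for the mean and SD of a group. Sod3 and Cat lie high in Control and IRI and low in the other 3 groups, Txnip is highest in IRI and lowest in Hemin, and the remaining 7 genes keep to a narrow band apart from Gpx4 in IRI+Hemin.

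In IRI vs Control, which sets the injury with its surgery against untreated kidneys, 1 gene rose (Txnip) and 0 fell, at a background of 17% of 17711 genes called higher, 33.7% called lower and 50.7% called either way. At an unadjusted p below 0.05 the 10 genes gave the same counts, 1 higher and 0 lower. Their log2 fold changes had a median of 0.05, against -0.17 over all genes tested. In IPC+IRI vs IRI, which asks what preconditioning adds, 1 gene rose (Sod2) and 6 fell (Sod3, Cat, Gpx3, Prdx1, Prdx3 and Txnip), and the median was -0.41. The background there was 26% higher, 17.7% lower and 43.7% either way, with a median of 0.09. In IPC+IRI vs Control, 2 genes rose (Sod2 and Txnip) and 5 fell (Sod3, Cat, Gpx3, Prdx1 and Prdx3), at 23.1% higher, 32.6% lower and 55.8% either way among all genes.

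In IRI+Hemin vs IRI, 0 genes rose and 5 fell (Sod3, Cat, Gpx3, Prdx1 and Txnip), against 26.1% of all genes higher, 18% lower and 44.1% either way. An unadjusted p below 0.05 gave 0 genes higher and 7 lower there. In Hemin vs Control, 1 gene rose (Sod2) and 4 fell (Sod3, Cat, Prdx3 and Txnip), at a background of 18.4% higher, 17.6% lower and 36% either way. The direction of the background depended on the scaling. Without normalization between arrays, 8773 of the 9251 genes called in Hemin vs Control were higher, and 5816 of the 6401 called in IPC+IRI vs IRI. These 5 comparisons share their Control or IRI arrays, so their counts are not independent of each other, and all but the first cross scan days.

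Of the 5 pairs of groups outside the study's list, IPC+IRI vs Hemin called 1 of the 10 genes (35.8% of all genes) and IRI+Hemin vs Hemin called 2, both higher (Gpx1 and Txnip; 44.2% of all genes). IPC+IRI vs IRI+Hemin called 0 of the 10 by limma, with 2 at an unadjusted p below 0.05, where 11.7% of all genes were called. IRI+Hemin vs Control called 6 (57.5% of all genes), and IRI vs Hemin called 6 as well (59.6% of all genes). The interaction that sets the effect of ischemia with hemin against its effect without hemin called 0 of the 10, also at an unadjusted p below 0.05, and 7.78% of all genes.

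**Figure D2:**
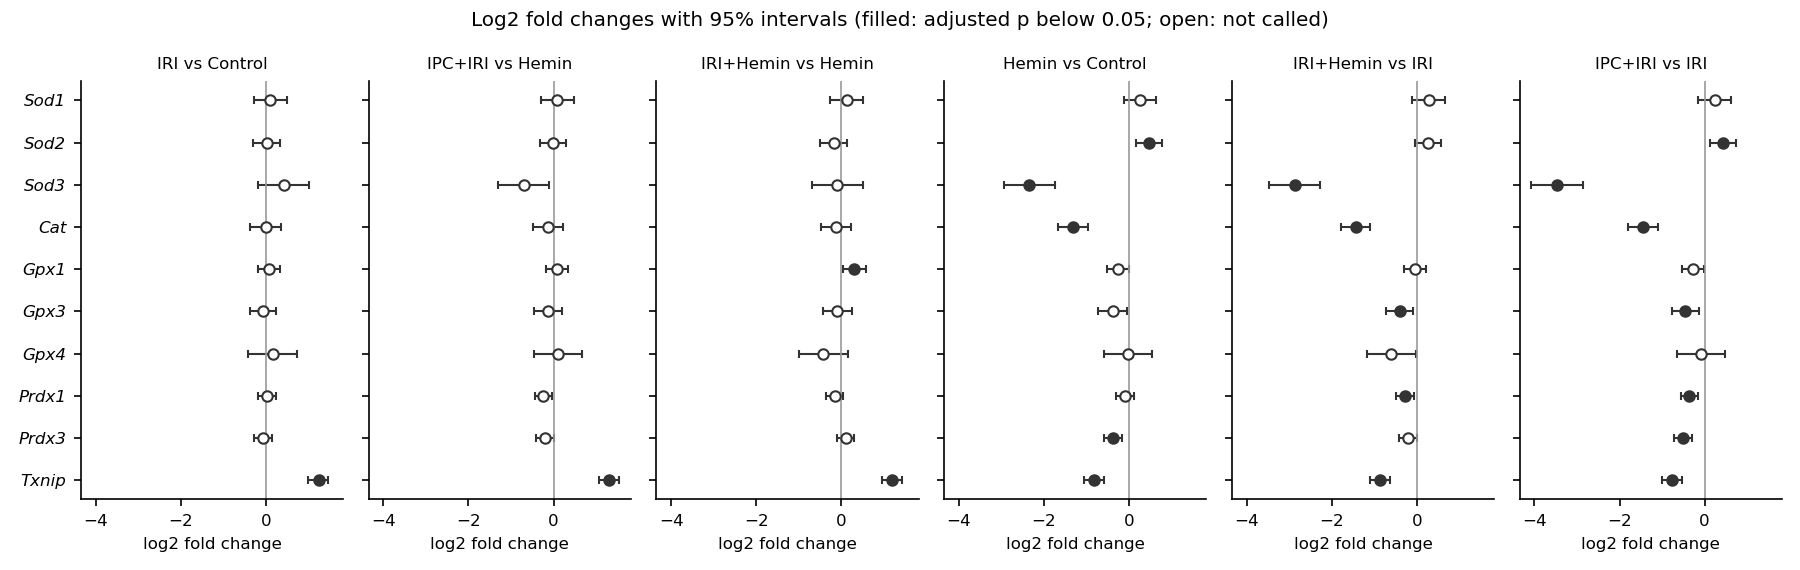
Log2 fold changes of the 10 genes (horizontal axis) with 95% intervals from the limma fit in 6 comparisons, 1 panel each, with filled points at an adjusted p below 0.05. In the 2 panels within a scan day, IRI vs Control and IPC+IRI vs Hemin, the filled point is that of Txnip, whereas Sod3 and Cat lie far to the left in the 3 panels that set the later scan days against the first.

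Txnip is induced by glucose through the sensor Mlxip (MondoA) and its paired boxes in the Txnip promoter. As a gene value at this scaling, it was higher in every group with ischemia than in Control or Hemin. In IRI+Hemin and IPC+IRI the excess over Control rested on 1 of the 2 Txnip probes. The 300-base Txnip promoter (250 bases before and 50 after the start, plus strand, chr3:96557707-96558006 in GRCm38.p6, RefSeq) is shown because it holds these paired boxes. Capitals mark the 1 match to the paired form, CACGNG followed by any 5 bases and a further CACGNG, and the 1 match to GTAAACA, a forkhead site, each searched on both strands.
Txnip: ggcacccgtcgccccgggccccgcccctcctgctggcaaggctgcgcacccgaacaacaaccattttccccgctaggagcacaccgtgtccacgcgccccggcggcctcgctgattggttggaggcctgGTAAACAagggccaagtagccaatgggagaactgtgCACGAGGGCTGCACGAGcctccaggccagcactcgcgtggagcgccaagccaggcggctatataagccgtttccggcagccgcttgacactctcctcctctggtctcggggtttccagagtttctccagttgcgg
The paired form was present in 0.0487% of 32851 RefSeq promoters of this length and the forkhead letters in 3.65%. Among the 9 of the 10 genes with a promoter in the table, Txnip alone held either of them, and the E-box CACGTG (7.15% of promoters) was in none. A match describes the letters and does not show a site in use, and the paired form was picked for the search with this promoter in view.

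Txnip stood at 3.79, 3.60, 3.68 and 3.77 on the Control arrays and at 4.87, 5.05, 4.91 and 4.95 on the IRI arrays. It stood at 4.24, 4.17, 4.05 and 3.84 in IRI+Hemin, at 4.10, 4.31, 3.99 and 4.36 in IPC+IRI, and at 2.79, 2.99, 2.72 and 3.03 in Hemin. All 4 IRI arrays lay above every other array, all 4 Hemin arrays below every other array, and Control lay under both groups with ischemia after a pretreatment, while those 2 groups overlapped each other. In the order of the group means, IRI (4.95 ± 0.076) exceeded IPC+IRI (4.19 ± 0.17) by 0.76 (SE 0.11, adjusted p = 6.3e-05), which was -0.44 from IRI to IPC+IRI without normalization (adjusted p = 0.206). IPC+IRI and IRI+Hemin (4.07 ± 0.18) did not differ beyond their spread (0.12, 95% interval from -0.12 to 0.35, adjusted p = 0.523). IRI+Hemin exceeded Control (3.71 ± 0.09) by 0.37 (adjusted p = 0.00942), and Control exceeded Hemin (2.88 ± 0.15) by 0.83 (adjusted p = 8.92e-05).

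The rise with ischemia was measured with and without hemin. It was 1.24 (SE 0.11, adjusted p = 1.6e-07) from Control to IRI and 1.19 (SE 0.11, adjusted p = 5.01e-07) from Hemin to IRI+Hemin, a pair that shares no array with the first but crosses scan days. The interaction was -0.05 (SE 0.16, 95% interval from -0.38 to 0.28, adjusted p = 0.902). IPC+IRI, which also differs by pretreatment, lay above Hemin by 1.31 (SE 0.11, adjusted p = 2.13e-07). Where the arrays of both groups did not overlap, as in these 3 pairs, the exact permutation test (two-sided) gave p = 0.029, the smallest that 4 against 4 arrays allow. Hemin lay below Control by 0.83 (log2 fold change -0.83) and IRI+Hemin below IRI by 0.87 (-0.87), differences that cross scan days and were lost without normalization between arrays (-0.26, adjusted p = 0.417, and -0.51).

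The 2 Txnip probes, both for NM_001009935 on chromosome 3 (96365147 to 96365206 and 96363085 to 96363259 in mm9), both rose from Control to IRI but differed in how the pretreated groups compared with Control. From Control to IRI the brighter probe rose by 1.22 (adjusted p = 2.37e-07) and the dimmer one by 1.40 (adjusted p = 0.000116), and both were higher in IPC+IRI than in Hemin, by 1.32 and 1.11. From Control to IPC+IRI the brighter one rose by 0.55 (adjusted p = 0.000607), while the dimmer one stood 0.38 lower in IPC+IRI and was not called (log2 fold change -0.38, adjusted p = 0.179). The gene value follows the brighter probe, since signals are averaged before the log2. With the mean of the log2 values over both probes, the excess of IPC+IRI over Control was 0.08 (adjusted p = 0.686) and that of IRI+Hemin 0.11 (adjusted p = 0.568), so that the call of Txnip above Control in these 2 groups rests on 1 probe. Both calls were also lost with quantile normalization (0.29, adjusted p = 0.0754, and 0.19, adjusted p = 0.23), and that of IRI+Hemin with scaling over detected probes (0.25, adjusted p = 0.0709).

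**Figure D3:**
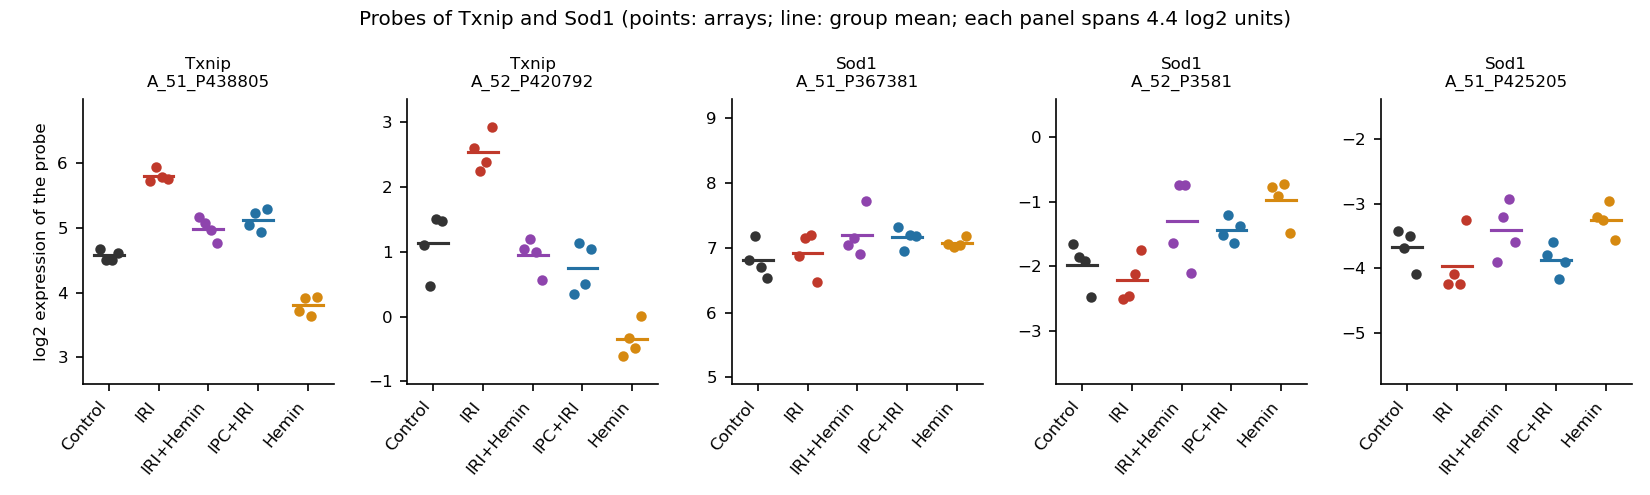
Log2 expression (vertical axis) of the 2 Txnip probes and the 3 Sod1 probes on the 20 arrays by group, with points for arrays and lines for group means. Both Txnip probes are highest in IRI and lowest in Hemin, but IRI+Hemin and IPC+IRI lie above Control on the left probe alone, and the dim Sod1 probes spread more within groups than the bright one.

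Of the 8 relatives and sensors of Txnip that were listed (5 arrestin-domain genes, Mlxip, Mlxipl and Mlx), 2 rose and 1 fell in IRI vs Control. For this list and those that follow, the shares of all genes called, given above for each comparison, are the background. Mlxip rose from -0.44 to 0.34, by 0.78 (SE 0.12, adjusted p = 3.07e-05), and it rose by 0.62 from Hemin to IPC+IRI (adjusted p = 0.00055) and by 0.68 from Hemin to IRI+Hemin (adjusted p = 0.000173). It fell by 0.64 from Control to Hemin (adjusted p = 0.000621). Arrdc5, an arrestin-domain relative near the lower end of the array, fell by 1.2 in IRI vs Control (adjusted p = 0.0208). In IRI+Hemin vs IRI 1 of the 7 tested rose and 3 fell, with Arrdc3, which helps to remove receptors from the cell surface, the largest fall (-1.38, adjusted p = 0.0101).

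The genes with the highest Pearson r with Txnip over the 20 arrays, among 14473 genes well above background on all of them, were Ugcg (0.971), Cnn3 (0.971), Frmd4b (0.97), Pgm1 (0.969) and Jmjd1c (0.968). Over the 5 group means, the highest were C230096K16Rik, Fam49b, Bhlhe40, C430004E15Rik and Strap, with r between 0.9967 and 0.9996. Bhlhe40, a clock-related repressor, went from 2.22 in Control to 4.07 in IRI and 1.26 in Hemin. The arrays share 5 group means, so these values describe the pattern and carry no test.

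Among the superoxide dismutases, the extracellular Sod3 (NM_011435, 1 probe on chromosome 5 from 52759318 to 52759377 in mm9) had the widest range of group means of the 10 genes. It stood at 1.62, 0.32, 2.37 and 1.99 in Control and at 1.98, 1.69, 2.00 and 2.30 in IRI. It stood at -1.01, -0.92, -0.97 and -0.61 in IRI+Hemin, at -1.63, -1.53, -1.29 and -1.48 in IPC+IRI and at -0.82, -0.70, -0.86 and -0.74 in Hemin. All 8 arrays of Control and IRI lay above the 12 others, with Control 2 between the 2 sets and nearer to the lower one.

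Sod3 was lower in IPC+IRI than in IRI by 3.47 (log2 fold change -3.47, SE 0.29, adjusted p = 5.71e-07), an 11.1-fold difference, and lower in IRI+Hemin than in IRI by 7.3-fold (-2.87, adjusted p = 2.82e-06). From Control to Hemin, without any surgery, it fell by 2.35 (5.11-fold, adjusted p = 4.89e-05). IRI and Control did not differ beyond their spread (0.42, 95% interval from -0.18 to 1.02, adjusted p = 0.236), and without Control 2 that difference was 0.00 (adjusted p = 0.992). Without Control 2 the fall from Control to Hemin was 2.77 (log2 fold change -2.77, adjusted p = 2.47e-08). Within the last scan day, IPC+IRI lay below Hemin on all arrays, by -0.70 (95% interval from -1.3 to -0.1), which was not called (adjusted p = 0.0627). Hemin and IRI+Hemin did not differ beyond their spread (0.10, adjusted p = 0.799). IPC+IRI lay below IRI+Hemin on all arrays too, by -0.61 (95% interval from -1.2 to -0.01), and was not called (adjusted p = 0.171). With the compared arrays alone, both of these gaps of IPC+IRI were called (adjusted p = 0.00126 against Hemin and 0.0453 against IRI+Hemin).

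In background-subtracted signal before any scaling, Sod3 read 647, 183, 979 and 876 intensity units in Control and between 615 and 1385 in IRI. It read between 71.8 and 183 on the 12 arrays of the other groups. Before the division by the 75th percentile, the Control and IRI arrays other than Control 2 thus read above the 12 others. Control 2 read as low as the highest of the 12 to 3 significant digits. The 75th percentile itself was 147 intensity units on Control 2, the lowest of the 20 arrays, on which it ran up to 358.

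Sod1 and Sod2, the cytosolic and the mitochondrial enzyme, moved little. Sod2 (NM_013671, chromosome 17) stood at 5.86, 6.50, 5.89 and 5.80 in Control, between 5.76 and 6.26 in IRI, between 6.15 and 6.41 in IRI+Hemin, between 6.32 and 6.72 in IPC+IRI and between 6.42 and 6.56 in Hemin. All IPC+IRI arrays were above all IRI arrays, while Control 2 reached into the range of the later groups. Sod2 rose by 0.44 from IRI to IPC+IRI (SE 0.15, adjusted p = 0.0222), by 0.46 from Control to IPC+IRI (adjusted p = 0.0132) and by 0.47 from Control to Hemin (adjusted p = 0.0181), all under 1.4-fold at this scaling. Without normalization these were 0.75, 0.89 and 1.04, all called. The first was lost without IRI 1, IRI 4 or IPC+IRI 1 (0.41, 0.35 and 0.35). The second was lost with the compared arrays alone (0.46, adjusted p = 0.0594), and the last without Control 1, Control 3 or Control 4 (0.42, 0.43 and 0.40). Within the scan days Sod2 differed by 0.02 from Control to IRI (95% interval from -0.29 to 0.33) and by -0.02 from Hemin to IPC+IRI (95% interval from -0.32 to 0.29).

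Sod1 lay between 4.90 and 6.14 on the 20 arrays, was highest on average in IRI+Hemin (5.62 ± 0.36) and lowest in Control (5.23 ± 0.28), and was called in none of the 10 pairs. Its largest difference, 0.39 from Control to IRI+Hemin, had an adjusted p of 0.0765. That difference was called under 5 of 20 alternatives, with 0.87 without normalization (adjusted p = 0.000147) and 0.51 without Control 2 and 0.49 without IRI+Hemin 3, and the difference of Hemin from Control was 0.83 without normalization (adjusted p = 0.000388). In IPC+IRI vs Control it was called without Control 2 (0.47, adjusted p = 0.0365). The gene value rests on 1 bright probe (NM_011434, chromosome 16 from 90226497 to 90226556 in mm9). The 2 dim probes under the same name carry the accession BC057074 and lie upstream of it, at 90223273 to 90223332 and 90224181 to 90224240. One of these 2 was called higher by 1.00 in Hemin than in Control (adjusted p = 0.00995), which the bright probe (0.26, adjusted p = 0.284) was not.

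Copper delivery genes, which load Sod1 and Sod3, were listed as Ccs, Atox1, Atp7a and Slc31a1. Of these 4, 0 were called in IRI vs Control, while 3 rose in Hemin vs Control, 2 in IPC+IRI vs IRI and 2 in IRI+Hemin vs IRI. Atp7a, the copper pump of the secretory route that supplies Sod3, rose by 0.62 from Control to Hemin (adjusted p = 0.00125) and by 0.73 from IRI to IPC+IRI (adjusted p = 0.000224). Of 8 tested genes of superoxide sources, 1 rose and 2 fell in IRI vs Control. Xdh, which encodes xanthine oxidoreductase, rose by 1.12 in IRI (adjusted p = 0.0061). Duox1, a dual oxidase, fell by 1.5 in IRI (log2 fold change -1.5, adjusted p = 7.81e-06).

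Catalase (NM_009804, 1 probe on chromosome 2 from 103294660 to 103294719 in mm9) split the groups in the way Sod3 did, at a smaller size. Its promoter (minus strand, chr2:103485104-103485403 in GRCm38.p6, RefSeq) is shown because Cat moved with Sod3 across the groups. Capitals mark its 4 matches to CCAAT on either strand, a box found in 37.4% of all promoters of this length and in 6 of the 9 genes with a promoter.
Cat: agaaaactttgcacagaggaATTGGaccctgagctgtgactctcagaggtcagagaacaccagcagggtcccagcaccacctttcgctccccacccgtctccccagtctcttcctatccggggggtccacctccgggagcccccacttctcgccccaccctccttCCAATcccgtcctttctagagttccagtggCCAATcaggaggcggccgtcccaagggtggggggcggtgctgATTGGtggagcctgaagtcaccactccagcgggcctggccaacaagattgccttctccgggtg
Its letters held no match to the antioxidant response core, the forkhead site or the paired boxes.

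Cat stood at 6.17, 5.69, 6.19 and 6.26 in Control and at 6.17, 6.14, 6.31 and 5.67 in IRI. It stood at 4.94, 4.41, 4.59 and 4.57 in IRI+Hemin, at 4.91, 4.54, 4.33 and 4.73 in IPC+IRI and at 4.64, 4.65, 4.74 and 5.0 in Hemin. The 8 arrays of Control and IRI lay above the 12 others without overlap, and within each of these sets the groups overlapped. Cat fell by 1.44 from IRI to IPC+IRI (SE 0.17, adjusted p = 1.07e-05) and by 1.44 from IRI to IRI+Hemin (adjusted p = 8.31e-06), both 2.72-fold. From Control to Hemin it fell by 1.32 (2.5-fold, adjusted p = 6.88e-05).

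Within the scan days Cat did not move beyond its spread, with -0.13 from Hemin to IPC+IRI (95% interval from -0.48 to 0.22, adjusted p = 0.571) and less than 0.01 in size from Control to IRI (95% interval from -0.36 to 0.35, adjusted p = 0.985). The interaction was -0.12 (SE 0.24, adjusted p = 0.817).

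Over the 20 arrays Sod3 and Cat had a Pearson r of 0.93, and with the group means removed it was 0.24, so the likeness lay between groups. Genes most like Sod3 over the arrays were Ap2a1 (0.987), Scaf1 (0.985), Pmm2 (0.985), Bsg (0.983) and Ncstn (0.981). By group means they were Pmf1, Ctbs, Fscn1, Osbp and Jarid1c, with r between 0.9986 and 0.9997. Those most like Cat over the arrays were Hisppd1 (0.971), Jmjd1b (0.971), Sipa1l3 (0.969), Usp8 (0.968) and the transcript ENSMUST00000038002 (0.968). By group means they were Suclg2, Gnl3l, Trak2, Sipa1l3 and Mospd2, with r between 0.998 and 0.9995. Ncstn, a subunit of the gamma-secretase complex, for example stood at -1.22 in Control, -0.84 in IRI and -2.95, -3.38 and -3.17 in IRI+Hemin, IPC+IRI and Hemin.

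**Figure D4:**
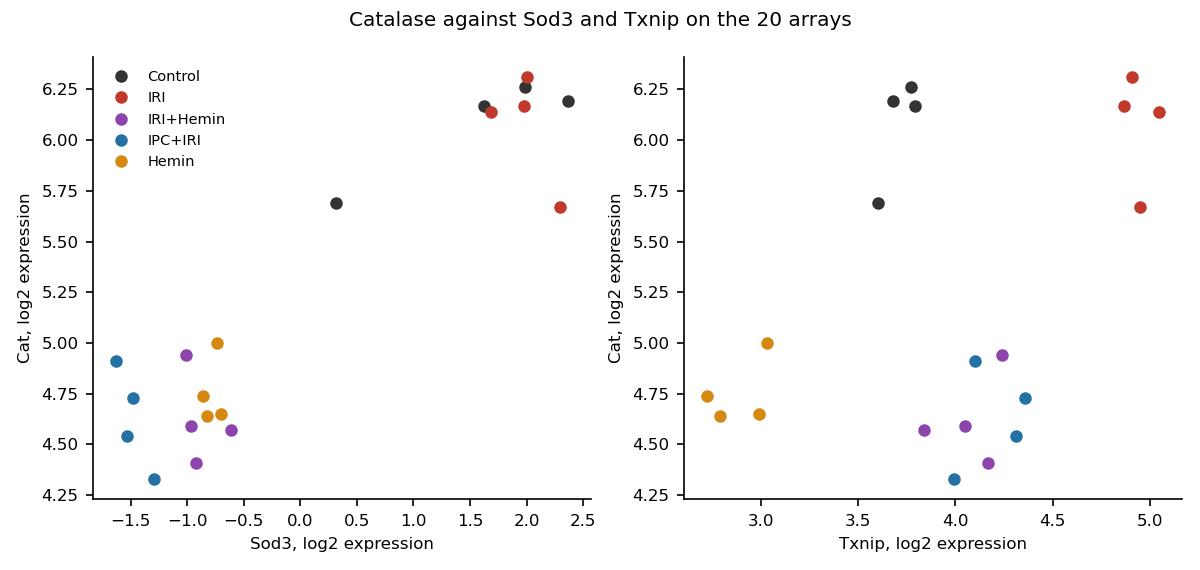
Log2 expression of Cat (vertical axes) against Sod3 (left) and Txnip (right) on the 20 arrays, with 1 point for each array in the colour of its group. On the left the 8 arrays of Control and IRI stand apart from the 12 others, with Control 2 at 0.32 for Sod3, and on the right Txnip spreads the groups within each of these 2 sets.

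Summed marker levels, to which the brightest genes add most, were set beside these values. In each of the 4 sums that follow, IRI overlapped at least 1 of the other 3 groups. The proximal tubule sum of Control lay above all 3. All 7 proximal tubule markers listed were well above background in every group, none at 0, and their summed level over the 75th percentile was 421 to 473 in Control, 334 to 467 in IRI, 272 to 383 in IRI+Hemin, 283 to 336 in IPC+IRI and 366 to 385 in Hemin. The 7 did not move as one. From Control to Hemin, 3 of them fell, the anion transporter Slc22a8 (-1.59, adjusted p = 6.88e-05), the phosphate transporter Slc34a1 (-0.54, adjusted p = 0.00565) and Cyp2e1 (-0.77, adjusted p = 0.0282). The other 4 were not called there, with Aqp1 at 0.29, Slc5a2 at 0.17, Lrp2 at 0.07 and Slc22a6 at -0.11. By group means, Slc22a8, Slc34a1, Cyp2e1 and Slc22a6 were lower in all of the other 3 groups than in Control and IRI, while Aqp1 was higher in all of them. Slc22a8 had means of 3.01 in Control and 2.93 in IRI, against 1.43 in Hemin, 1.30 in IPC+IRI and 1.58 in IRI+Hemin. Slc22a8 was singled out after its values were seen. The 5 smooth muscle and mesangium markers were above background in every group, with sums of 18.6 to 25.4 in Control, 23 to 32.1 in IRI, 18.3 to 33.4 in IRI+Hemin, 14.9 to 22.7 in IPC+IRI and 15.4 to 22.9 in Hemin. Adipocyte markers (1 to 3 of 5 above background, by group) summed to between 0.188 and 22.3 in Control, up to 18.4 in IRI, up to 10.6 in IRI+Hemin, up to 4.21 in IPC+IRI and up to 5.63 in Hemin. Erythroid markers (4 of 5 above background in every group) summed to 33.4 to 142 in Control, 78.1 to 99 in IRI, 39.7 to 157 in IRI+Hemin, 12 to 55.9 in IPC+IRI and 33.6 to 64.4 in Hemin. They were lower in IPC+IRI than in IRI, where Cat, Sod3, Prdx1 and Prdx3 fell too, with Hba-a1 at -1.71 (adjusted p = 0.016) and Hbb-b1 at -1.61 (adjusted p = 0.0146), both globin genes chosen after their values were seen. From Control to Hemin, where Sod3 and Cat also fell, Hba-a1 differed by -0.19 (adjusted p = 0.814). The part of these levels in the differences of the antioxidant genes was not tested.

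Of 9 tested genes of peroxisomal oxidases and import, which act beside catalase, 1 rose and 1 fell in Hemin vs Control. The one that fell was Pex5, the import receptor that brings catalase into the peroxisome. Pex5 fell by 1.04 there (log2 fold change -1.04, adjusted p = 3.78e-05), and it fell by 1.3 from IRI to IPC+IRI (adjusted p = 1.95e-06) and by 1.02 from IRI to IRI+Hemin (adjusted p = 8.92e-06). From Control to IRI it rose by 0.35 (adjusted p = 0.0209).

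The glutathione peroxidases gave smaller differences. Gpx3 (NM_008161, chromosome 11) had the brightest probe on 3 Control arrays and all IRI arrays, and the Gpx1 (NM_008160, chromosome 9) probe ranked 9 by mean signal of 41174, so both sat near the top of the signal range. Gpx3 stood at 8.46, 8.45, 8.73 and 8.32 in Control, between 8.09 and 8.74 in IRI, between 7.81 and 8.16 in IRI+Hemin, between 7.75 and 8.35 in IPC+IRI and at 8.06, 8.13 and 8.15 in Hemin. It fell by 0.45 from IRI to IPC+IRI (SE 0.15, adjusted p = 0.024), by 0.51 from Control to IPC+IRI (adjusted p = 0.00828) and by 0.40 from IRI to IRI+Hemin (log2 fold change -0.40, adjusted p = 0.0383). The IRI arrays overlapped both pretreated groups, and with 3 Hemin arrays the difference of Hemin from Control (-0.38, adjusted p = 0.0771) was not called. That difference was called under 3 of 19 alternatives, quantile normalization (-0.48), scaling over detected probes (-0.50) and the compared arrays alone (-0.38), and was 0.12 without normalization. The call in IPC+IRI vs IRI was lost under 8 of 19 alternatives (down to -0.13, adjusted p = 0.673), among them leaving out IRI 2, IRI 3, IPC+IRI 2 or IPC+IRI 3 (-0.41, -0.34, -0.40 and -0.37). The call in IRI+Hemin vs IRI was lost under 11 of 19, among them 5 of the 8 single arrays left out (IRI 1, IRI 2, IRI 3, IRI+Hemin 3 and IRI+Hemin 4, with -0.43 to -0.30), and was 0.02 with normexp background correction, while that in IPC+IRI vs Control was lost under 3 of 19.

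Gpx1, the cytosolic enzyme, ran from 7.24 to 8.06 over the arrays. It was called in 2 pairs, 0.31 higher in IRI+Hemin than in Hemin (SE 0.12, adjusted p = 0.0467) and 0.36 higher in IRI than in Hemin (adjusted p = 0.0186). The first of these was lost under 14 of 20 alternatives and turned under another. The second was lost under 4 of 20, with 0.12 under normexp, -0.09 without normalization, 0.30 without IRI 3 and 0.32 without Hemin 3. Quantile normalization and scaling over detected probes called Gpx1 lower in IPC+IRI vs IRI (-0.51 and -0.30), IPC+IRI vs Control (-0.45 and -0.30) and Hemin vs Control (-0.40 and -0.39), and no normalization called it higher in IRI+Hemin vs Control (0.52).

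Gpx4, which repairs lipid peroxides in membranes, stood at 6.28, 4.45, 6.13 and 5.49 in IRI+Hemin. On the arrays of the other 4 groups it lay between 5.73 and 6.37. The SD in IRI+Hemin was 0.84, against 0.073 to 0.27 elsewhere, and 2 of the 4 arrays were below all other arrays of the series. No pair of groups was called for Gpx4. The difference of IRI+Hemin from IRI was -0.60 (95% interval from -1.17 to -0.03, adjusted p = 0.0786), and without IRI+Hemin 2 it was -0.22 (adjusted p = 0.325). It was called without IRI+Hemin 1 (-0.83, adjusted p = 0.0172) or IRI+Hemin 3 (-0.78, adjusted p = 0.0318), and IRI+Hemin vs Control was called without IRI+Hemin 1 (-0.67, adjusted p = 0.0374).

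Of the 4 tested members among the other glutathione peroxidases, 0 rose and 2 fell in IRI vs Control, Gpx7 by 0.86 (adjusted p = 0.00381) and Gpx8 by 0.51 (adjusted p = 0.024), both enzymes of the endoplasmic reticulum. Gpx8 rose by 0.83 from IRI to IPC+IRI (adjusted p = 0.00138) and by 0.49 from Control to Hemin (adjusted p = 0.0417). Of 7 genes of selenium supply and selenocysteine insertion, 0 rose and 2 fell in IRI vs Control, 1 rose and 4 fell in IPC+IRI vs IRI, and 0 rose and 3 fell in Hemin vs Control. Sephs2, which makes the selenium donor for selenocysteine, fell by 0.84 from IRI to IPC+IRI (adjusted p = 0.000151), and Sephs1 fell by 1.08 from IRI to IRI+Hemin (adjusted p = 4.41e-05).

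Among 9 tested genes of glutathione synthesis and reduction, 2 rose and 2 fell in IRI vs Control. Gclc, the catalytic subunit of the rate-limiting ligase, rose by 0.71 from Control to IRI (adjusted p = 0.0228) and by 1.14 from Hemin to IPC+IRI (adjusted p = 0.00179). Gsr, glutathione reductase, fell by 0.93 from Control to Hemin (log2 fold change -0.93, adjusted p = 0.00121), by 1.03 from IRI to IPC+IRI and by 1.32 from IRI to IRI+Hemin.

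Both peroxiredoxins were lower in IPC+IRI than in IRI by less than a factor of 2. Prdx1, which is cytosolic and a known target of the factor Nrf2, has its promoter shown because it holds the core of an antioxidant response element (plus strand, chr4:116685349-116685648 in GRCm38.p6, RefSeq). Capitals mark its 1 match to TGACNNNGC, here on the reverse strand, letters found in 12.4% of all promoters of this length and, among the 9 genes with a promoter in the table, also in that of Sod1.
Prdx1: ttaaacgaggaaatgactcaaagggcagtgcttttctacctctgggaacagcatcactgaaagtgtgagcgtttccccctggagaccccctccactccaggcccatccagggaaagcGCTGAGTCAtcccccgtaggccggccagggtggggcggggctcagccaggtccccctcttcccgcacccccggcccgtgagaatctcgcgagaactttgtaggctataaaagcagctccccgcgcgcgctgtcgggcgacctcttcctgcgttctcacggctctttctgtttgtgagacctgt
Prdx1 (NM_011034, chromosome 4) stood at 5.94, 5.84, 5.99 and 5.94 in Control, between 5.91 and 6.04 in IRI, between 5.59 and 5.81 in IRI+Hemin, between 5.47 and 5.85 in IPC+IRI and between 5.68 and 5.96 in Hemin. It did not differ beyond its spread from Control to IRI (0.02, 95% interval from -0.18 to 0.23). It fell by 0.36 from IRI to IPC+IRI (SE 0.10, adjusted p = 0.00699) and by 0.28 from IRI to IRI+Hemin (adjusted p = 0.0288), without overlap in either pair. The first of these was lost with normexp (-0.10), without normalization (-0.04) and in the deposited matrix with and without shift (-0.24 and -0.15). The second was 0.12 with normexp background correction and 0.09 without normalization, so its direction depends on the scaling, and it was lost without IRI 2, IRI 3, IRI+Hemin 1 or IRI+Hemin 3 (-0.28 to -0.25).

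Prdx3, the mitochondrial member (NM_007452, chromosome 19), stood at 3.96, 3.83, 3.89 and 3.91 in Control and at 3.79, 3.94, 3.95 and 3.62 in IRI. It lay between 3.50 and 3.71 in IRI+Hemin, between 3.19 and 3.49 in IPC+IRI and between 3.41 and 3.66 in Hemin. It fell by 0.51 from IRI to IPC+IRI (SE 0.10, adjusted p = 0.000596), by 0.58 from Control to IPC+IRI (adjusted p = 9.98e-05) and by 0.38 from Control to Hemin (log2 fold change -0.38, adjusted p = 0.00694). Without normalization these were -0.20, -0.15 and 0.18, none of them called. Prdx3 and Gpx3 had an r of 0.86 over the arrays and 0.80 with the group means removed, and Sod1 and Sod2 had 0.78 and 0.81, so these pairs also moved together between arrays of a group.

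Of the other 4 peroxiredoxin genes, 0 were called in IRI vs Control, whereas 3 rose in Hemin vs Control and 2 in IPC+IRI vs IRI, Prdx4 of the secretory route the most in both (0.52, adjusted p = 0.00622, and 0.46, adjusted p = 0.00951). The list of the thioredoxin and glutaredoxin system held 13 genes, among them those of thioredoxin, which recharges peroxiredoxins and is held back by Txnip. Of these 13, 5 rose and 1 fell in IRI vs Control. Srxn1, sulfiredoxin, which rescues overoxidised peroxiredoxins, rose from 1.74 to 5.01, by 3.27 (SE 0.17, adjusted p = 4.99e-10). It rose by 3.14 from Hemin to IPC+IRI (adjusted p = 2.51e-09) and by 2.85 from Hemin to IRI+Hemin (adjusted p = 4.82e-09), and from IRI to IPC+IRI it differed by -0.07 (adjusted p = 0.767). In IPC+IRI vs Control, 8 of the 13 rose and 0 fell (61.5% called, against 55.8% of all genes), and in IPC+IRI vs IRI 7 rose and 3 fell (76.9% called, against 43.7%).

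Across all 71 related genes listed, of which 66 were tested in IRI vs Control, 11 rose and 13 fell there, 36.4% against 50.7% of all genes, with a median of -0.06 against -0.17. Of 66 tested in IPC+IRI vs IRI 19 rose and 16 fell (53% against 43.7%), of 67 in IPC+IRI vs Control 15 rose and 17 fell (47.8% against 55.8%), of 66 in IRI+Hemin vs IRI 15 rose and 18 fell (50% against 44.1%), and of 67 in Hemin vs Control 15 rose and 9 fell (35.8% against 36%). The 4 tubular injury markers summed to 1.52 to 1.96 in Control and 0.774 to 1.47 in Hemin, against 49.7 to 61.3 in IRI, 17 to 72.3 in IRI+Hemin and 11.5 to 53.3 in IPC+IRI, all 4 being above background in these 3. The 7 leukocyte markers, 5 or 6 of them above background by group, summed to 2.28 to 4.18 in Control, 3.22 to 5.36 in IRI, 3.99 to 7.62 in IRI+Hemin, 5.26 to 21.2 in IPC+IRI and 2.93 to 4.05 in Hemin, so that the sum in IRI overlapped that in Control. Single markers went both ways from Control to IRI. Cd68 of macrophages rose by 2.23 (adjusted p = 2.06e-05) and S100a8 of neutrophils by 4.05 (adjusted p = 7.71e-05), Cd79a of B cells fell by 1.07 (adjusted p = 0.0423), and Cd3e (-0.51), Lyz2 (-0.14) and Ptprc (0.01) were not called. Cd68 was singled out after its values were seen. Cd68 had means of -2.53 in Control and -2.92 in Hemin, against -0.30 in IRI, -1.12 in IPC+IRI and -0.78 in IRI+Hemin, highest in IRI and lowest in Hemin as Txnip was. None of the other leukocyte markers listed had its highest mean in IRI. Lyz2 stood at 1.18 in Control, 1.04 in IRI, 1.74 in IRI+Hemin and 3.22 in IPC+IRI. S100a8 stood at -0.25 in IRI and 0.24 in IPC+IRI. The part of these lists in the rise of Txnip was not tested.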

How the data were processed

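Total kidney RNA in 5 groups was measured on 20 1-colour Agilent arrays. The intensity values are the scanner output deposited by the authors, in which Agilent Feature Extraction 9.5.3.1 (per the file headers) had subtracted the background from each spot, with no step between arrays. The deposited log2 matrix holds the log2 of the same processed signal in 33825 rows, 18.1% blank, and for single-spot probes 100% of its values lay within 0.001 of that log2. It was used as an alternative.

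Flagged spots were removed, spots of a probe averaged, each array divided by its 75th percentile, and a gene was the log2 of the mean over its probes, left missing where a probe was missing. A gene was tested with at most 1 missing value and at least 3 of 4 arrays of either group well above background. limma 3.58.1 in R 4.3.3 fitted 5 group means on 20 arrays (15 residual degrees of freedom), with Benjamini-Hochberg adjustment over all genes within each comparison. The fit was tested on simulated data. The study's SAM test was not run. Precision is limited by the number of arrays.

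The members, gene lists and tests were chosen with earlier results of these data known. The rule for each related list was the called gene with the largest rise and that with the largest fall in each of the study's 5 comparisons. Not every gene under that rule is named here. All 10 members are named, the 5 genes most like each of the 3 members with the widest range of group means (over arrays, and over group means with an absolute r over arrays of at least 0.8), and Hmox1. Values of named genes in the other pairs are given beside some of them. The value of Gpx8 in IRI vs Control was chosen after it was seen. Alternatives were normexp background correction (offset 50), no, quantile and detected-probe normalization, other probe summaries, the deposited matrix, filters, flagged spots, limma-trend, the compared arrays alone, the replicate block, a 2-fold limit and each array left out.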

Additional observations from a re-analysis of the deposited data

Results flagged for a closer look

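Of 49 gene and group combinations with 4 arrays, 3 held an array whose gap to the nearest of the others exceeded Dixon's critical share of the group's range, and chance gives about 1 in 20. Sod2 stood at 6.50 on Control 2, where the other Control arrays lay between 5.80 and 5.89. Cat stood at 5.69 on Control 2, where the other Control arrays lay between 6.17 and 6.26. Gpx1 stood at 7.24 on IPC+IRI 2, where the others of that group lay between 7.72 and 7.74. Without Control 2, Sod2 rose by 0.63 from Control to Hemin (adjusted p = 0.000635) and by 0.62 to IPC+IRI (adjusted p = 0.000397). Without IPC+IRI 2, Gpx1 differed by -0.15 between IPC+IRI and IRI (adjusted p = 0.31). The reason for these distances was not tested.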

How the results depend on the processing

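Counts of the 10 genes called moved with the settings as follows. With each array left out in turn, the count ran from 1 to 2 in IRI vs Control (2 without Control 3), from 6 to 7 in IPC+IRI vs IRI, from 7 to 8 in IPC+IRI vs Control, from 3 to 6 in IRI+Hemin vs IRI (3 without IRI 2 or IRI 3), from 4 to 5 in Hemin vs Control, from 4 to 8 in IRI+Hemin vs Control, from 1 to 2 in IRI+Hemin vs Hemin, from 1 to 2 in IPC+IRI vs Hemin (2 without IPC+IRI 1 or Hemin 4), from 0 to 1 in IPC+IRI vs IRI+Hemin, from 5 to 7 in IRI vs Hemin and from 0 to 0 for the interaction. The deposited matrix let 3 to 6 of the 10 genes be tested, so its counts are of those genes alone and are set against the calls as reported among them. Shifted to the 75th percentile, it called 2 of 3 in IRI vs Control (1 as reported), 2 of 3 in IPC+IRI vs IRI (3), 2 of 4 in IRI+Hemin vs IRI (3), 2 of 4 in IRI vs Hemin (3), 4 of 6 in IPC+IRI vs Hemin (1), 1 of 5 in IRI+Hemin vs Hemin (1) and 1 of 5 in IPC+IRI vs IRI+Hemin (0). Without the shift it called 1 of 3 in IPC+IRI vs IRI (3), 1 of 4 in IRI+Hemin vs IRI (3), 1 of 5 in IRI+Hemin vs Hemin (1), 2 of 5 in Hemin vs Control (4), 2 of 4 in IRI vs Hemin (3), 3 of 6 in IPC+IRI vs Control (5) and 3 of 5 in IRI+Hemin vs Control (4). Over all genes, in the pairs just listed, the shifted matrix called from 1624 of 13176 (IPC+IRI vs IRI+Hemin) to 8217 of 12686 (IRI vs Hemin). The unshifted one called from 3421 of 13554 (IRI+Hemin vs Hemin) to 7271 of 12686 (IRI vs Hemin). A limit of at least 2-fold left 2 in each of IPC+IRI vs IRI, IPC+IRI vs Control, IRI+Hemin vs IRI, Hemin vs Control and IRI+Hemin vs Control, 1 in IRI+Hemin vs Hemin and 3 in IRI vs Hemin. Shares over all genes are not given for this limit or for the arrays left out. No normalization gave 4 in IPC+IRI vs IRI (6401 of 17663 over all genes), and quantile normalization gave 8 in Hemin vs Control (7027 of 18572). The compared arrays alone gave 3 in IRI+Hemin vs IRI (6868 of 17831) and 2 in IPC+IRI vs Hemin (7149 of 18536). IRI+Hemin vs Hemin called 1 with normexp, no or quantile normalization, the brightest probe, the mean of log2 values, no filter or limma-trend. Over all genes these settings called from 4323 (normexp) to 8310 (limma-trend) of 18628 there. IPC+IRI vs IRI+Hemin called 1 with quantile normalization, scaling over detected probes, the filter on all arrays, limma-trend or the compared arrays alone. Over all genes the last of these called 660 of 18091 there, and limma-trend called 2275. Fewer genes tested lowers the counts of the deposited matrix by construction, and other causes were not tested.

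Some calls turned in direction. With normexp, Gpx1 in IRI+Hemin vs Hemin was -0.03, Gpx3 in IRI+Hemin vs IRI 0.02, and Prdx1 0.12 in IRI+Hemin vs IRI and 0.04 in IRI+Hemin vs Control. Without normalization, Gpx1 in IRI vs Hemin was -0.09, Gpx3 in IRI+Hemin vs Control 0.02, Prdx1 0.10 in IPC+IRI vs Control, 0.09 in IRI+Hemin vs IRI and 0.23 in IRI+Hemin vs Control, and Prdx3 0.18 in Hemin vs Control, 0.20 in IRI+Hemin vs Control and -0.14 in IRI vs Hemin. In the deposited matrix without shift, Prdx1 was 0.08 in IRI+Hemin vs Control, and Prdx3 was 0.18, 0.20 and -0.14 in those same pairs. Sod3 and Cat in Hemin vs Control kept their call under every alternative that tested them (the deposited matrix did not test Cat there), from -2.77 to -1.79 and from -1.45 to -0.75, as did Txnip in IRI vs Control, from 1 to 1.36.

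Replicate numbers did not pair the samples, since 40 same-numbered pairs had correlations of -0.384 to 0.213 (median -0.031). With the replicate block, the counts were 1 in IRI vs Control, 7 in IPC+IRI vs IRI, 7 in IPC+IRI vs Control, 4 in IRI+Hemin vs IRI, 5 in Hemin vs Control, 5 in IRI+Hemin vs Control, 1 in IRI+Hemin vs Hemin, 1 in IPC+IRI vs Hemin, 0 in IPC+IRI vs IRI+Hemin, 6 in IRI vs Hemin and 0 for the interaction. Over all genes the replicate block called 8656 of 17711 in IRI vs Control, 7362 of 17663 in IPC+IRI vs IRI and 9918 of 18342 in IPC+IRI vs Control. It called 7461 of 17831 in IRI+Hemin vs IRI and 6254 of 18572 in Hemin vs Control. The slide as a random block could not be fitted, as each group had its own slide, and SAM was not run.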
